A study of Mus musculus with 16 samples.

Results

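Kidneys of mice that lack both the inhibitory Fc receptor *Fcgr2b* and the DNA-sensing adaptor STING were compared with kidneys of wild-type mice, to see what differed from wild-type when STING was lost as well. The comparison used 8 of the 16 arrays of the series, 4 of each group, chosen by the genotype in their titles, with 1 mouse per array. The double-deficient mice (Fcgr2b-/-.Stinggt/gt) were 6 months old and are labelled Fcgr2b-ko, Sting-ko on a mixed 129/C57BL/6 strain. The wild-type mice were also 6 months old and are labelled C57BL/6. The 4 Fcgr2b-deficient mice (129/C57BL/6, described in the labels as lupus mice) and the 4 Sting-deficient mice (C57BL/6) of the same age entered the model and are set beside the comparison; the study's heatmaps head the former group Fcgr2b-/-.Stingwt/gt. The Sting allele is Goldenticket (gt), a point mutation that acts as a functional knockout and is carried in every cell. By the study's methods the double-deficient mice were bred by crossing the 2 single-deficient lines, whereas wild-type mice were bought from an animal center. The methods also mention littermate wild-type mice for spleen and lymph node cells, and do not say which were used on the arrays. *Fcgr2b* genotype, 129-derived chromosome segments, and source of the animals, where it differed, therefore cannot be told apart in this comparison. The labels give no sex, and Y-linked genes were high in 2 wild-type and 2 double-deficient mice. In the groups set beside them, Y-linked genes were high only in Fcgr2b-deficient replicate 3 and Sting-deficient replicate 3. Each array was hybridized with Cy3-labelled RNA made from 100 ng of whole-kidney RNA.

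FcγRIIB is the inhibitory receptor for IgG on B cells and myeloid cells, and mice without it can develop a lupus-like disease with nephritis. STING sits on the endoplasmic reticulum, binds the cyclic dinucleotide that cGAS makes on cytosolic DNA, and recruits TBK1, which phosphorylates IRF3 and switches on type I interferon and interferon-inducible genes. In whole-kidney RNA, fewer cells of a type and less RNA per cell cannot be told apart.

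Signal was expressed as log2 of the processed spot intensity minus the 75th percentile of its array, the scale of every level below, so a level of 0 is the brightness of that percentile. Between 29811 and 35507 probes of 56605 were well above background on the 4 wild-type arrays, and between 31380 and 35167 on the 4 double-deficient arrays. Across the 35628 tested probes, arrays of opposite groups correlated at 0.932 to 0.989, close to the range of arrays within the wild-type group (0.927 to 0.987) and within the double-deficient group (0.945 to 0.983). Wild-type replicate 1 stood apart from the other wild-type mice. Its score was the highest of the 4 in 26 of 38 gene lists, a fat-cell list among them, and list medians without it are given beside those over all arrays. The tissue carried the signal of kidney: log2 of the summed signal of 30 proximal tubule genes, on the same scale, was 11.94 to 12.76 in the wild-type and 12.03 to 12.45 in the double-deficient arrays.

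No gene met the threshold. limma, fitted to the 4 genotypes together, called 0 of 35628 probes (0%) at a 2-fold change and an adjusted p below 0.05, against 18 probes (0.0505%) between Fcgr2b-deficient and wild-type mice. Before adjustment, 151 probes (0.424%) had a p below 0.05, and the smallest adjusted p was 0.106, for *Cfap126*. The methods' two-tailed Mann-Whitney test gave 63 probes without adjustment, namely those whose 4 double-deficient arrays did not overlap with the 4 wild-type arrays (p = 0.0286 by the exact test, the smallest that 4 against 4 can give) and that were at least 2-fold apart. In the double-deficient mice 43 of these (0.121% of the tested probes) were higher and 20 (0.0561%) lower. Without wild-type replicate 1 the number was 448, without wild-type replicate 4 it was 102, and without double-deficient replicate 1, 2, or 4 it was 138, 118, or 104, where fewer arrays also make it easier not to overlap. The median log2 change over the 16396 tested genes, each read from its brightest probe, was −0.021.

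Genes near *Fcgr2b* and myeloid genes made up most of those that stood apart. Of the 16396 genes, 31 had groups that did not overlap and differed at least 2-fold, 22 of them higher and 9 lower with both genes lost. Within 200 genes on either side of *Fcgr2b* on chromosome 1, 6 of 146 tested genes (4.11%), *Fcgr2b* itself not counted, were among them, compared with 1 of 796 (0.126%) on the rest of chromosome 1 and 23 of 15453 (0.149%) on other chromosomes. The neighbors were 2 higher and 4 lower. On the other chromosomes 20 were higher and 3 lower. These counts describe the arrays and were not tested. A probe was included if at least 4 arrays, of any genotype, measured it well above background. Of the 22 higher genes, 9 were well above background on 0 wild-type arrays and so entered through the other genotypes. Of the 9 lower genes, *Prm1* was above it on 0 double-deficient arrays. Whether this filter favored higher genes was not tested, so no conclusion is drawn from the split into higher and lower genes or probes.

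**Figure D1:**
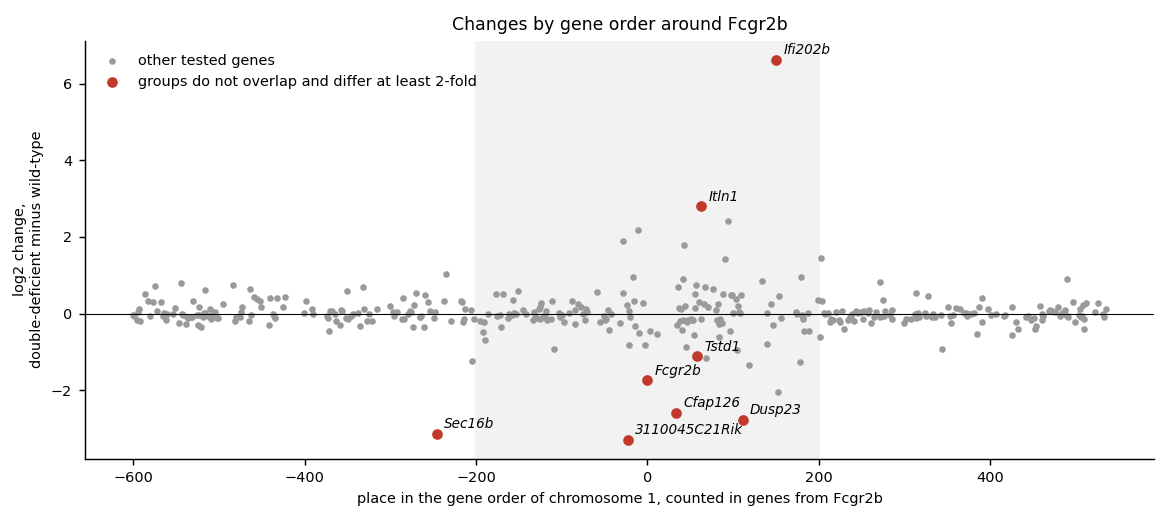
Log2 change between double-deficient and wild-type kidneys (y axis) of the tested chromosome 1 genes by their place in the gene order, counted in genes from Fcgr2b (x axis); the grey band spans 200 genes on either side. The 8 red genes had groups of 4 that did not overlap and differed at least 2-fold, and 7 of them, Fcgr2b included, lie in the band.

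As a check of the labels, *Fcgr2b* itself was read. Its brightest probe was at 2.13, 1.91, 1.60, and 1.14 in wild-type replicates 1 to 4 and at −0.045, 0.50, −0.40, and −0.24 in double-deficient replicates 1 to 4. All 4 double-deficient arrays lay below all wild-type arrays, a log2 difference of −1.74, or 3.35-fold (SE 0.35, adjusted p = 0.477 from limma). A second probe gave −1.46 (SE 0.32). Both remained well above background on every double-deficient array, and whether they lie inside the deleted part is not given in the sources used here. At the brightest probe the Fcgr2b-deficient mice were between 0.024 and 0.70. The Sting-deficient mice were at 1.54, 1.05, 0.70, and −0.19 there, a log2 change of −0.92 (SE 0.35) from wild-type. Their replicate 4 lay within the double-deficient range, so a low level at this probe does not by itself check the *Fcgr2b* label. *Sting1* was at 1.03, −1.35, −0.59, and −0.0050 in the wild-type mice and at 0.14, 0.90, −0.087, and −0.57 in the double-deficient mice, a log2 change of 0.33 (SE 0.66, adjusted p = 1.0). Since Goldenticket is a point mutation, the level of this transcript does not check the *Sting* label.

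*Ifi202b* is an interferon-inducible member of the Ifi200 family of DNA-binding proteins. Its signal was at −7.48, −6.83, −6.57, and −7.31 in the wild-type mice, not well above background on any array, and at −0.52, 0.69, −0.39, and −1.47 in the double-deficient mice. It was thus at least 20.2-fold higher in the double-deficient mice, with an adjusted p of 0.208 in the model of 16 arrays and 0.00331 when the 8 arrays were fitted alone. Its second probe, at a log2 change of 6.31, passed the threshold there as well. With normexp background correction the log2 change of *Ifi202b* was 2.77, against 6.62 without it. The Fcgr2b-deficient mice were at 3.27, −0.23, −1.06, and 1.94. Of the Sting-deficient mice, labelled C57BL/6, replicates 1 and 3 were not above background at −7.24 and −6.69, but replicates 2 and 4 were above it at −1.91 and −2.78. The gene lies 150 genes from *Fcgr2b*. In its family 7 genes were tested, 4 higher and 3 lower, and *Ifi202b* alone had an unadjusted p below 0.05, with *Ifi205* at −2.06 (SE 1.0) in the other direction.

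*Cfap126*, which encodes a protein of motile cilia and lies 33 genes from *Fcgr2b*, had the smallest p. It was at 1.39, 2.54, 2.60, and 2.24 in the wild-type mice and at −0.13, −0.58, −0.12, and −0.77 in the double-deficient mice. The log2 change was −2.59 (SE 0.36, adjusted p = 0.106) and −2.41 by its second probe. It passed the threshold without wild-type replicate 1 (−2.86, adjusted p = 0.0389), with normexp background correction (−2.36, adjusted p = 0.0345), and over the 26272 probes above background on all arrays (adjusted p = 0.0453). The Fcgr2b-deficient mice lay with the double-deficient mice, between −0.85 and 0.34, and the Sting-deficient mice between 0.79 and 2.33.

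The phosphatase gene *Dusp23*, 111 genes away, was at 0.055, 1.86, 2.17, and 1.97 in the wild-type and −0.56, −2.76, −0.63, and −1.07 in the double-deficient mice, a log2 change of −2.77 (SE 0.56, adjusted p = 0.531). Here wild-type replicate 1 was close to the double-deficient mice. *3110045C21Rik*, 23 genes away, was between −0.24 and 1.78 in the wild-type and between −3.53 and −1.59 in the double-deficient mice, a change of −3.29 (SE 0.75). *Tstd1*, a thiosulfate sulfurtransferase gene, was between 4.20 and 4.64 against 2.88 and 3.51, a change of −1.12 (SE 0.29). The intelectin gene *Itln1*, a lectin of the gut, was not above background on any wild-type array and above it on 3 of 4 double-deficient arrays, by 1.72-fold or more. *Sec16b*, which serves export from the endoplasmic reticulum, lay further off, at 246 genes, and differed by −3.14 (SE 0.76). The adjusted p was 1.0 for the last 4 genes. The Sting-deficient mice differed from wild-type by −0.063 at *Dusp23*, −1.06 at *3110045C21Rik*, −0.90 at *Tstd1*, and −1.55 at *Sec16b*. In the same order, the double-deficient mice differed from the Sting-deficient mice by −2.71, −2.23, −0.21, and −1.59. *Itln1* was above background on 0 Sting-deficient arrays.

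**Figure D2:**
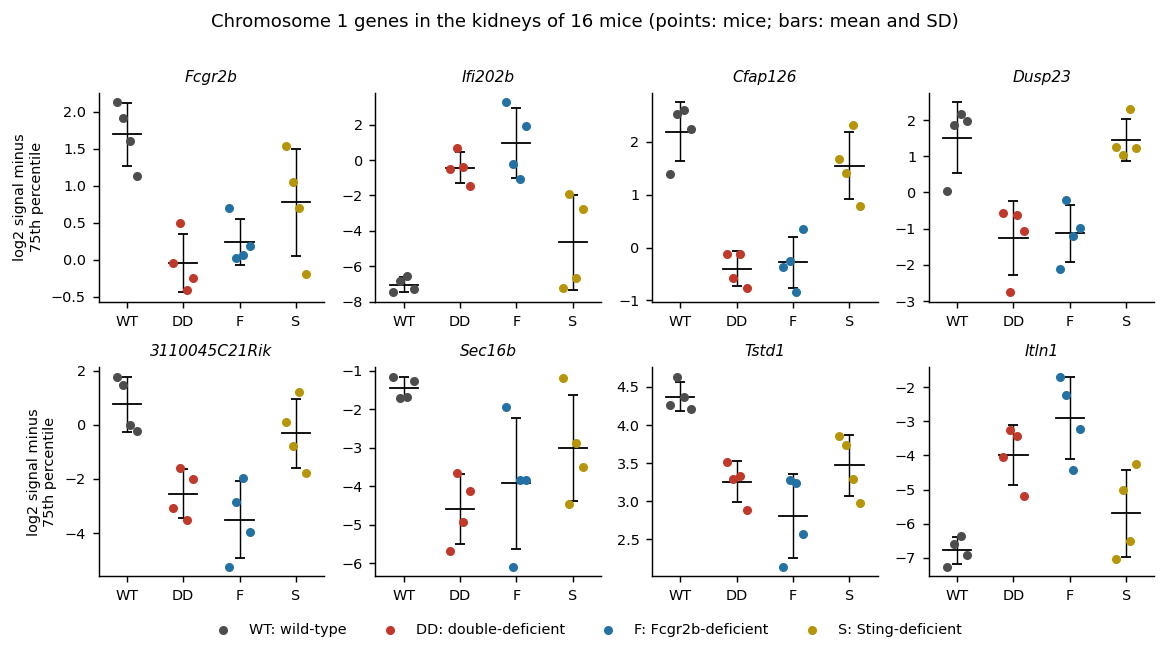
Log2 signal minus the 75th percentile of the array (y axis) of Fcgr2b and 7 other chromosome 1 genes in the 16 mice, by genotype (x axis: WT, wild-type; DD, double-deficient; F, Fcgr2b-deficient; S, Sting-deficient); points are mice and bars the mean and SD of 4. In each panel the 4 double-deficient mice lie on one side of the 4 wild-type mice, and for Ifi202b 2 of the 4 Sting-deficient mice lie near −2 and −3 and 2 near −7.

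Another 4 chromosome 1 genes met the same description only by a dimmer probe, and they are named here after their values were seen. *Apoa2*, an apolipoprotein gene, differed by −3.56 at that probe and by −0.44 at its brighter one. *Olfml2b* differed by 2.32 and, with overlap, by 2.17, *Soat1* by 1.46 and at its 3 other probes by 0.23 to 0.65, and *BC055324* by −1.22 and −0.076. The probes of *Olfml2b* thus gave like values, and those of *Apoa2* and *BC055324* did not.

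Among genes of monocytes, macrophages, and granulocytes, a small set stood apart while most of the lists did not. In a list of patrolling monocyte and eosinophil genes, 6 of 12 tested genes were higher with no overlap, where 0.293% of all tested genes were, and the same 6 had an unadjusted p below 0.05, where 0.378% of all genes were higher at that level. Of these 6, *Ear1*, *Ear2*, *Ear10*, and *Rnase2a* are related genes that may share signal, so the count is not one of separate observations. The lists were also written with earlier results of these data known, so their counts beside those of all genes are a description and no test. The median log2 change of the list was 1.54, and log2 of its summed signal was 2.31 to 3.12 in the wild-type and 3.26 to 3.58 in the double-deficient arrays. In a list of classical monocyte and neutrophil genes, 4 of 23 were higher with no overlap and the median was 0.36. Of 17 macrophage genes, 17 were higher, 2 of them with an unadjusted p below 0.05 (*Lyz2*, lysozyme, at 1.84, and *Trem2*, a lipid receptor, at 1.61) and 0 without overlap, with a median of 0.70. limma called 0 genes of any list. Of all tested genes, 44.8% were higher in the double-deficient mice, the share to set beside the counts of higher genes here. Without wild-type replicate 1, the 3 medians were 1.97, 0.76, and 1.18, and 8, 10, and 9 genes were higher with no overlap, where 2.95% of all genes were. Of 12 pan-leukocyte and mast cell genes, 11 were higher, with a median of 0.36 (0.70, and 4 genes without overlap, when wild-type replicate 1 was left out) and log2 of the summed signal at 3.73 to 5.77 in the wild-type and 4.16 to 5.84 in the double-deficient arrays. The part of leukocyte content in these differences was not tested. The study states that the kidneys were not perfused, so signal of cells in the blood and in the tissue cannot be told apart here.

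*Clec4e* encodes Mincle, a receptor for fungal glycolipids and dead cells on activated macrophages. It was at −4.48, −6.89, −6.62, and −7.27 in the wild-type mice, above background only in replicate 1, and at −1.79, −1.88, −1.70, and −2.37 in the double-deficient mice. The log2 change was 4.38 (SE 0.80, adjusted p = 0.256). *Acod1* makes itaconate in activated macrophages and was too dim to measure in the wild-type mice (0 of 4 arrays) but not in the double-deficient mice, at −3.39, −2.53, −2.09, and −2.70. The difference was at least 4.24-fold, with an adjusted p of 0.282 over 16 arrays and 0.00933 over the 8 arrays alone.

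The formyl peptide receptors sense bacterial and mitochondrial peptides on phagocytes. *Fpr1* was not above background in any wild-type mouse and was at −1.72, −2.64, −2.53, and −3.09 in the double-deficient mice, at least 4.59-fold higher (adjusted p = 0.367). *Fpr2* was between −0.71 and 0.040 in the wild-type and between 0.12 and 1.24 in the double-deficient mice, a log2 change of 1.03 at the bright probe and 3.21 at a dimmer one. The receptor genes *Cd300e*, *Treml4*, and *S1pr5*, found on patrolling monocytes, were likewise higher with no overlap. *Cd300e* was between −4.48 and −2.79 against −1.76 and −1.02, a change of 2.31 (SE 0.70). *Treml4* was between −4.00 and −2.30 against −1.40 and −0.74, a change of 2.01 (SE 0.61). *S1pr5* was at least 1.74-fold higher, and *Pou2f2*, the lymphoid transcription factor Oct-2, differed by 1.01 (SE 0.36). Apart from *Fpr1*, these genes had an adjusted p of 1.0.

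The eosinophil-associated ribonucleases *Ear1*, *Ear2*, *Ear10*, and *Rnase2a* are related genes on chromosome 14, made by eosinophils and some macrophages. Signal may pass between their probes, so they are not 4 separate observations. The 250 bases before their starts were taken from RefSeq on the assembly GRCm38.p6. There *Ear1* and *Ear2* share an unbroken run of 197 bases, and *Ear10* one of 95 with either. *Rnase2a* is less alike, with a longest run of 23 to 25 bases with each of them. The bases are read 5′ to 3′ from chr14:43819640-43819889 (reverse strand) for *Ear1*, chr14:44102404-44102653 (forward strand) for *Ear2*, chr14:43923597-43923846 (reverse strand) for *Ear10*, and chr14:51256113-51256362 (reverse strand) for *Rnase2a*. Capitals mark the letters TTGCNNAA, a core of C/EBP sites, searched on both strands. This core stands in 9.56% of the 32851 promoter windows of that length, and a match is a description of letters, not of a bound site.
Ear1: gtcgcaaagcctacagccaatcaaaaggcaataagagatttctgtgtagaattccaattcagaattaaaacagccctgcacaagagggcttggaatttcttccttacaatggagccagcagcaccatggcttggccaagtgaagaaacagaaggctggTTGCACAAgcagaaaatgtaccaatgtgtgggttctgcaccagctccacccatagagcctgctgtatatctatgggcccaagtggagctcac
Ear2: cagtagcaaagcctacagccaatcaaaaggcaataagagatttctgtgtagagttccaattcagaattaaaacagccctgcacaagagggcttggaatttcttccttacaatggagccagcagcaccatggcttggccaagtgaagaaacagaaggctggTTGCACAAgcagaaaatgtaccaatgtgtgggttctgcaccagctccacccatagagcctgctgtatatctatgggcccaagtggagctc
Ear10: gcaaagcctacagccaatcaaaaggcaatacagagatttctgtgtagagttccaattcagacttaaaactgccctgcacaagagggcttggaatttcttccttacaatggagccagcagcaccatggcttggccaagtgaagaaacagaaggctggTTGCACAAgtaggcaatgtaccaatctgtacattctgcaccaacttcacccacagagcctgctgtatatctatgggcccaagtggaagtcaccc
Rnase2a: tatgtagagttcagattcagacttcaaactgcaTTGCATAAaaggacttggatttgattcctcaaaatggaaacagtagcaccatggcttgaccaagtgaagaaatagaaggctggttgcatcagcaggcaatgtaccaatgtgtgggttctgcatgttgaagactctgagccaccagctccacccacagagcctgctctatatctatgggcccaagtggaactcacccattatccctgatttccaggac

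*Ear2* was the brightest of the 4 probes, at −0.83, −2.71, −3.29, and −2.50 in the wild-type and 0.36, 0.27, 0.51, and −0.28 in the double-deficient mice. Its log2 change was 2.55 (SE 0.68, adjusted p = 1.0). *Ear1* was between −6.42 and −3.16 against −2.22 and −1.46, a change of 2.89 (SE 0.73), *Rnase2a* differed by 2.69 (SE 0.70), and *Ear10* by 2.31 (SE 0.67). In each of them wild-type replicate 1 was the highest wild-type mouse and still lay below every double-deficient mouse. *Ear6*, a further related gene, was not apart, at −0.12, nor was *Il5ra*, the interleukin-5 receptor gene of eosinophils, at −0.13. With normexp background correction (offset 50), the differences of dim genes were smaller, with the sign kept, at 1.42 for *Clec4e*, 1.07 for *Acod1*, 0.95 for *Fpr1*, 1.21 for *Cd300e*, and 0.88 for *Cxcl13*, while *Ear2* was at 1.77, and the median of the patrolling monocyte and eosinophil list was 0.85.

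**Figure D3:**
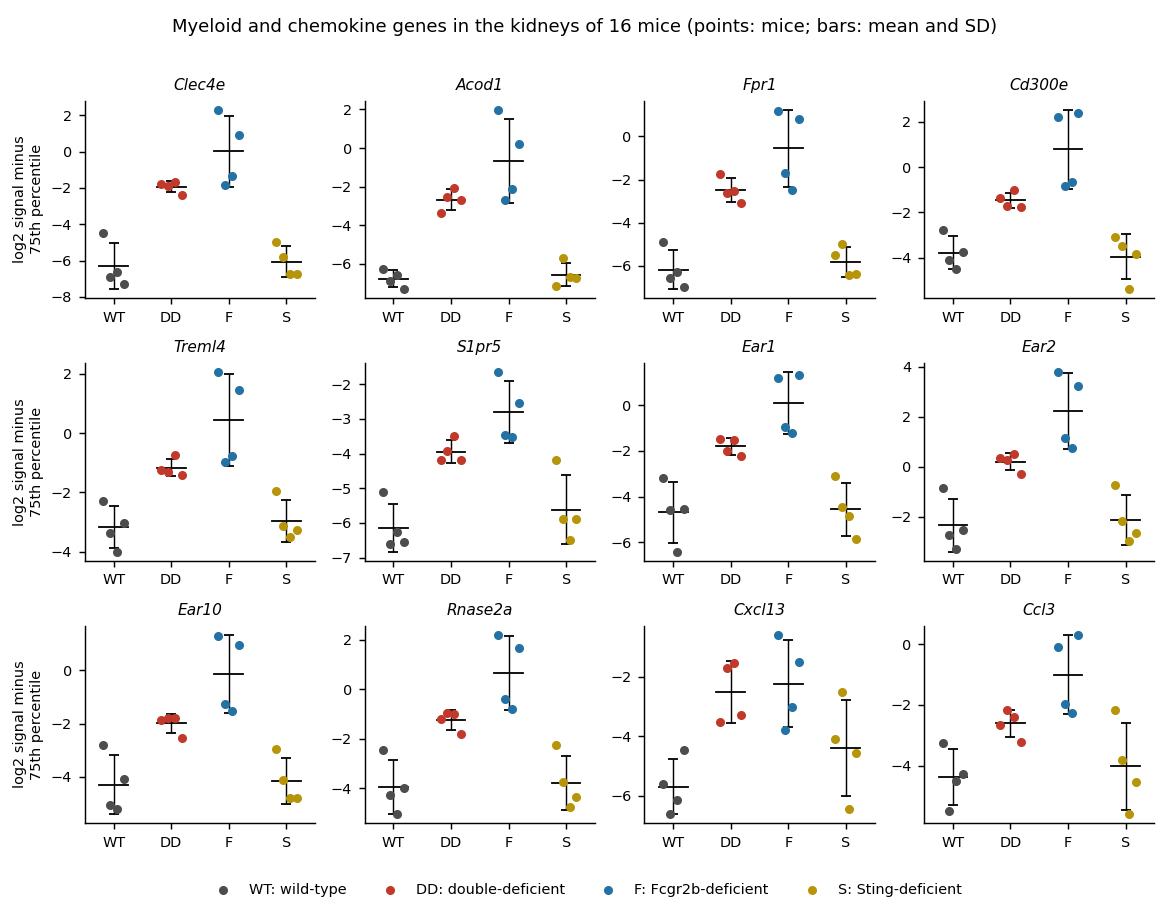
Log2 signal minus the 75th percentile of the array (y axis) of 12 myeloid and chemokine genes in the 16 mice, by genotype (x axis: WT, wild-type; DD, double-deficient; F, Fcgr2b-deficient; S, Sting-deficient); points are mice and bars the mean and SD of 4. In every panel the 4 double-deficient mice lie above the 4 wild-type mice, and in all but those of S1pr5, Cxcl13, and Ccl3 also above the 4 Sting-deficient mice.

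Of 22 chemokine genes, 19 were higher and 3 lower, where 44.8% of all tested genes were higher. Their median was 0.34, and 2 were higher without overlap, where 0.293% of all tested genes were. Without wild-type replicate 1, the median was 0.81, 5 were higher without overlap, where 2.95% of all genes were, and 4 had an unadjusted p below 0.05. *Cxcl13*, which draws B cells, was at −5.59, −6.59, −6.13, and −4.46 in the wild-type mice and at −3.51, −1.72, −1.55, and −3.30 in the double-deficient mice, a log2 change of 3.18 (SE 0.82, adjusted p = 1.0). The monocyte and neutrophil attractant *Ccl3* was between −5.47 and −3.26 against −3.21 and −2.17, a change of 1.77 (SE 0.71). *Ccl2*, the main attractant of classical monocytes, overlapped between the groups at 1.04 (SE 1.02). The 6 other genes on the list of 31 that no rule named were on the higher side, and they are named after their values were seen. *Il1rn*, the interleukin-1 receptor antagonist gene, was at least 1.37-fold and *Gpr84* at least 1.38-fold higher, both with 0 wild-type arrays above background. *Pi16* differed by 1.15 and *Hmga2*, above background on 1 wild-type array, by 1.37. The Sting-deficient mice differed from wild-type by 1.33 at *Pi16* and 0.61 at *Hmga2*. *Gm5591* and *Trem3* were above background on 0 wild-type arrays and on 2 and 1 double-deficient arrays, and no fold is given for them.

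The Fcgr2b-deficient mice were set against the same 4 wild-type arrays, so both comparisons share their controls and their values are only given side by side. The 18 probes called there belonged to 15 genes. *Clec4e* was at a log2 change of 6.33 in the Fcgr2b-deficient mice (adjusted p = 0.0102) and 4.38 in the double-deficient mice. *Cd300e* was at 4.56 and 2.31, *Ear2* at 4.56 and 2.55, and *Treml4* at 3.62 and 2.01. On chromosome 1, *Cfap126* was at −2.47 and −2.59. Between double-deficient and Fcgr2b-deficient mice, limma called 0 of 35628 probes, with 645 at p below 0.05 before adjustment. The Sting-deficient mice were near wild-type at these myeloid genes, with log2 changes of −0.17 for *Cd300e*, 0.20 for *Ear2*, and 0.21 for *Treml4*, and *Clec4e* below background in all 4. The double-deficient mice were at least 6.99-fold above the Sting-deficient mice at *Clec4e* and differed by 2.48 at *Cd300e*. Between these 2 groups limma called 0 probes, 1085 had p below 0.05 before adjustment, and the smallest adjusted p was 0.223.

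The listed interferon and STING pathway genes did not stand apart. *Ifi202b*, also interferon-inducible and apart without overlap, was counted with its own family and is not among the 65 genes that follow. Of 65 tested interferon-inducible genes, 29 were above and 36 below wild-type in the double-deficient mice, with a median log2 change of −0.035, 0 genes with p below 0.05 before adjustment, and 0 without overlap. Single genes ran from −0.75 for *Gbp6*, a guanylate-binding protein gene, to 0.73 for *Slfn8*, a Schlafen gene. Without wild-type replicate 1, 50 were higher and 15 lower, with a median of 0.23. The median of the list in the Fcgr2b-deficient mice, against the same wild-type arrays, was 0.63. *Isg15* and *Cxcl10*, 2 genes that IRF3 and interferon switch on, are shown by the 250 bases before their starts (RefSeq, GRCm38.p6, chr4:156200819-156201068 (reverse strand) and chr5:92348890-92349139 (reverse strand)). Capitals mark GAAA, any 2 bases, and GAAA again, a core of the interferon-stimulated response element, searched on both strands, which occurs 3 times with overlap in *Isg15*, 1 time in *Cxcl10*, and in 2.98% of all 32851 windows.
Isg15: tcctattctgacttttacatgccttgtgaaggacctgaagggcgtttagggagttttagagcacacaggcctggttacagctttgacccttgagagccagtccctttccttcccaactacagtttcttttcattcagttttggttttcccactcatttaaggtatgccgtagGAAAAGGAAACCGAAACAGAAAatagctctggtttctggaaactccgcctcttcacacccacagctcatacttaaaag
Cxcl10: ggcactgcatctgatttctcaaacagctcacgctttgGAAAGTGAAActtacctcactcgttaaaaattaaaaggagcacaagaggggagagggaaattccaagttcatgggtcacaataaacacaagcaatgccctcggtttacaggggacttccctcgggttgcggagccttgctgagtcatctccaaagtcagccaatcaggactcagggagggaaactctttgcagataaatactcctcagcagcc

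*Isg15*, the ubiquitin-like modifier, was at 2.06, 1.0, 1.55, and 2.03 in the wild-type mice and at 1.58, 1.51, 2.03, and 0.98 in the double-deficient mice, a log2 change of −0.14 (SE 0.51, adjusted p = 1.0). The chemokine *Cxcl10* was at 1.32, −0.030, 0.78, and 1.15 against 1.03, 1.55, 1.26, and 0.054, a change of 0.17 (SE 0.56). *Irf7*, the factor that amplifies the interferon response, was between 2.29 and 3.47 against 2.32 and 3.44. The groups of all 3 overlapped over most of their range. The signs for *Isg15* and *Cxcl10* turned when single mice were left out, with values from −0.36 to 0.047 and from −0.11 to 0.47 over the alternatives. *Irf3* differed by −0.15 (SE 0.26) and *Irf5* by 0.21 (SE 0.32).

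**Figure D4:**
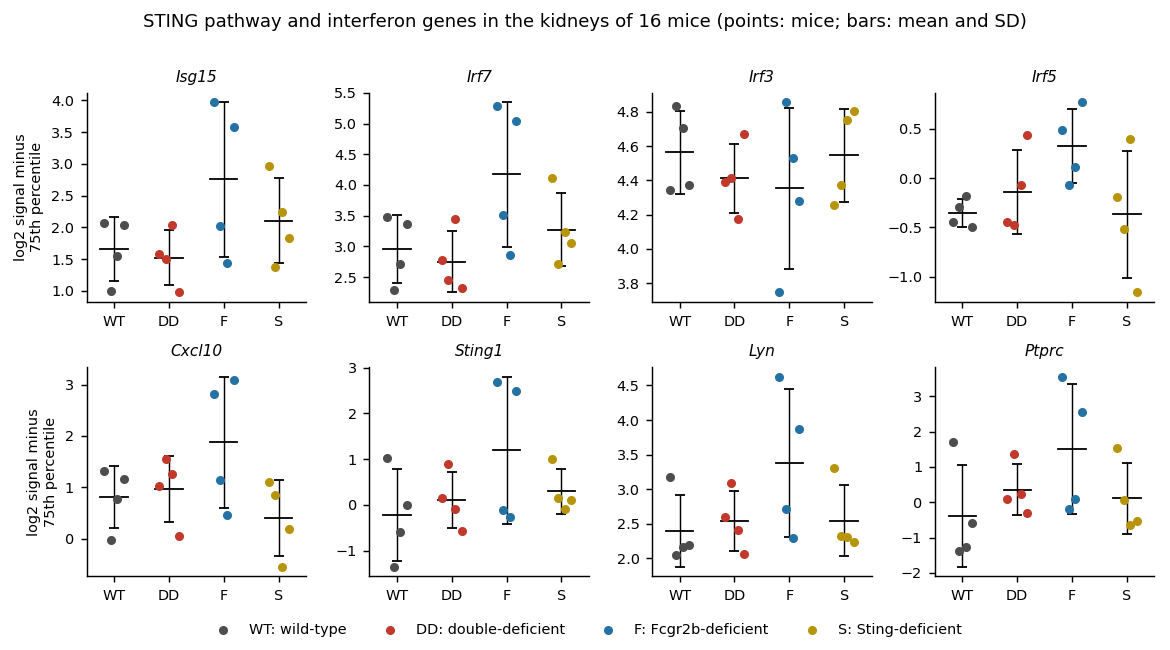
Log2 signal minus the 75th percentile of the array (y axis) of 8 genes of the STING pathway, the interferon response, and leukocytes in the 16 mice, by genotype (x axis: WT, wild-type; DD, double-deficient; F, Fcgr2b-deficient; S, Sting-deficient); points are mice and bars the mean and SD of 4. The double-deficient and wild-type mice overlap in every panel, as for Isg15, with wild-type mice at 1.0 to 2.06 and double-deficient mice at 0.98 to 2.03.

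Of 20 tested genes of the cGAS-STING pathway, 9 were higher and 11 lower, between −0.23 for *Rnaseh2c*, a subunit of the ribonuclease that removes RNA from DNA, and 0.47 for *Ikbke*, the kinase related to TBK1. *Lyn*, a Src family kinase, was between 2.05 and 3.17 against 2.06 and 3.09, a log2 change of 0.14 (SE 0.46). The cytokine genes *Tnf* (0.019, SE 0.29, and 1.48, SE 0.75, at a dimmer probe) and *Il1b* (1.18, SE 0.82) overlapped between the groups, as did the leukocyte genes *Ptprc* (CD45; 0.74, SE 0.85), *Itgax* (CD11c; 0.86, SE 0.75), and *Cd3e* (−0.029, SE 0.29). For *Il1b*, *Ptprc*, and *Itgax* the overlap rested on wild-type replicate 1, without which the groups were apart and the log2 changes were 1.84, 1.44, and 1.48. *Ifng* was above background on 1 wild-type and 2 double-deficient arrays, *Ifnb1* and *Il23a* were too dim to test, and *Mx1* had no named probe. The adjusted p of every gene in this paragraph was 1.0.

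Over all arrays, lists of other immune cells had smaller median changes than the lists of monocyte, granulocyte, and macrophage genes above, with B cell genes the closest to them. The median log2 change was 0.047 over 19 T cell genes, −0.040 over 12 NK and cytotoxic genes, 0.30 over 16 B cell genes, −0.15 over 10 plasma cell genes, −0.035 over 17 dendritic cell genes, and 0.020 over 11 MHC class II genes. In these lists 0 genes were at an unadjusted p under 0.05 or free of overlap. In the order given, 11, 6, 13, 4, 8, and 8 genes were higher, where 44.8% of all tested genes were. The medians of these lists without wild-type replicate 1 were 0.38, 0.50, 0.81, 0.075, 0.22, and 0.38. The B cell median then lay above the 0.76 of the classical monocyte and neutrophil list. Without that replicate, 2 B cell genes, 1 NK, and 1 dendritic cell gene were higher without overlap, where 2.95% of all genes were. Of the B cell genes, 1 was then higher at an unadjusted p below 0.05 from limma, where 1.1% of all genes were. Double-deficient replicate 2 was the highest double-deficient mouse for T cell, NK, dendritic cell, and B cell genes, and wild-type replicate 1 the highest wild-type mouse.

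**Figure D5:**
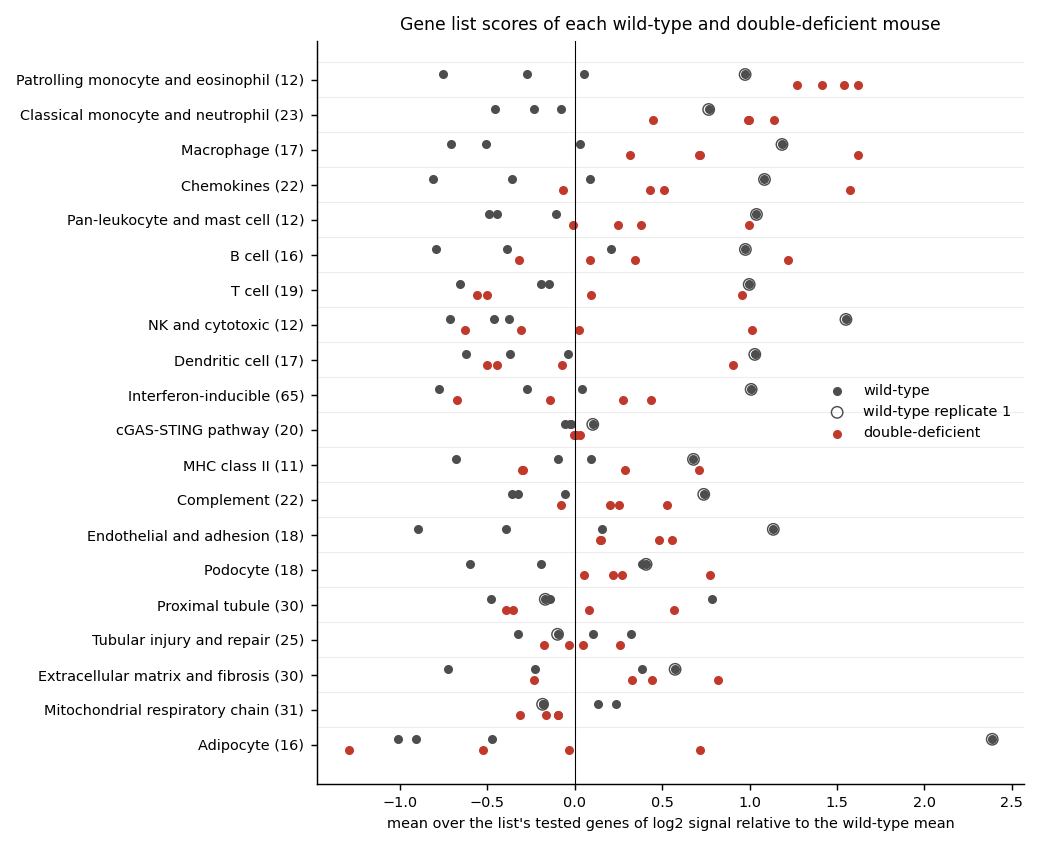
Score of each wild-type and double-deficient mouse (x axis: mean over the tested genes of a list of the log2 signal relative to the wild-type mean) for 20 gene lists (y axis, number of tested genes in brackets); open circles mark wild-type replicate 1. The 4 double-deficient mice lie above the 4 wild-type mice for the patrolling monocyte and eosinophil list alone of those drawn, at 1.27 to 1.62 against −0.75 to 0.97. The lists were written with earlier results of these data known.

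Kidney structure genes showed small differences, and their counts stand beside 44.8% of all tested genes that were higher. Of 30 proximal tubule genes, 11 were higher and 19 lower, with a median of −0.047, and of 30 genes of the thick limb, distal tubule, and collecting duct, 8 were higher and 22 lower, with a median of −0.077. Podocyte genes were higher in 16 of 18 cases, with a median of 0.29 and *Nphs1* (nephrin, of the slit diaphragm) at 0.82 (SE 0.52). Matrix and fibrosis genes were higher in 27 of 30 cases, with a median of 0.30. The 25 tubular injury genes had a median of 0.0094, with the injury marker *Havcr1* (KIM-1) at 0.20 (SE 0.94) and *Lcn2* (neutrophil gelatinase-associated lipocalin) at 0.11 (SE 0.85). All 31 genes of the mitochondrial respiratory chain were lower, between −0.29 and −0.050, with a median of −0.17. Before adjustment 0 genes of these lists had p below 0.05. The mean scores of the double-deficient mice, relative to the wild-type mean, were −0.026, −0.11, 0.33, 0.34, 0.025, and −0.17 in the order given. Those of the Sting-deficient mice were −0.63, −0.015, 0.40, 0.76, 0.029, and −0.40. The podocyte, matrix, and mitochondrial differences were thus not particular to the double-deficient mice. Without wild-type replicate 1, the medians of the 6 lists were −0.23, −0.35, 0.50, 0.58, −0.10, and −0.24 in the order given, and 4 of the 31 mitochondrial genes were higher. Scaling by the array median in place of the 75th percentile moved the median of all genes by −0.12, and over all alternatives the sign turned for the proximal tubule (−0.23 to 0.083), thick limb (−0.35 to 0.18), and tubular injury (−0.11 to 0.14) medians but not for the podocyte (0.068 to 0.50), matrix (0.11 to 0.58), or mitochondrial (−0.29 to −0.035) medians.

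Outside chromosome 1, 3 genes were lower by the same description. *Meox2*, a homeobox gene of vessels and muscle, was at −1.84, −3.62, −2.30, and −2.51 in the wild-type mice and at −4.72, −5.35, −5.58, and −3.76 in the double-deficient mice, above background on 1 of 4 of the latter. Its log2 change was −2.28 (SE 0.74, adjusted p = 1.0), and the Fcgr2b-deficient mice differed from wild-type by −2.46. *Banp*, a gene for a DNA-binding nuclear matrix protein, was between −0.081 and 1.10 against −0.72 and −0.29, a change of −1.07 (SE 0.26), with the Fcgr2b-deficient mice at −0.15 from wild-type and the Sting-deficient mice at −0.12. *Prm1*, a protamine gene of sperm, was above background in 3 wild-type and 0 double-deficient mice and at least 1.74-fold lower in the latter. The glutathione transferase gene *Gsta3*, on chromosome 1, was lower without overlap, as 0.311% of all tested genes were, but by less than 2-fold, at −0.52 (SE 0.37).

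The arrays lay on 2 slides, with 2 wild-type and 1 double-deficient array on slide 1 and 2 wild-type and 3 double-deficient arrays on slide 2. Within slides 1 and 2 the difference was 6.64 and 6.55 for *Ifi202b*, −2.09 and −2.91 for *Cfap126*, 3.89 and 4.96 for *Clec4e*, and 2.13 and 3.06 for *Ear2*, where the sign is fixed by the choice of genes without overlap. With the slide as a block, limma called 0 probes, 175 had p below 0.05 before adjustment, and the smallest adjusted p was 0.130.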

How the data were processed

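RNA of 16 kidneys was hybridized to one-color Agilent arrays. The authors deposited scanner files, extracted with Agilent Feature Extraction 11.0, whose processed signal is an intensity after background subtraction, with no scaling between arrays, and a table of log2 values, whose making is not given in the sources used here. The log2 intensity of non-control spots, outlier spots left out and spots of one probe averaged, had the array's 75th percentile subtracted. Probes that at least 4 of the 16 arrays measured well above background were fitted with limma 3.58.1 (lmFit, eBayes; R 4.3.3), with a mean per genotype and Benjamini-Hochberg adjustment. The spread was estimated over all 4 genotypes, and separate mice were the replicates, taken as independent. Tables were made with Python 3.11.15, pandas 2.3.3, numpy 2.4.6, and scipy 1.17.1. Simulated data with known changes served as a check. Of 56605 probes, 32989 (58.3%) took names from RefSeq (GRCm38.p6), a build that differs from that of the arrays, so that it served for names, gene order, and promoter sequence only, and probes without a name stayed in the test. A gene is read from its brightest probe.

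A group in which every array read a probe as background gives only a bound: the mean of the brighter group against, per array of the dimmer one, the higher of its own signal and the lowest signal well above background. The 38 gene lists, the genes named, and the comparison were chosen with earlier results of these data known. Named genes are those the study names, the 10 largest differences each way without overlap and of at least 2-fold, the genes called in Fcgr2b-deficient against wild-type mice, those within 200 genes of *Fcgr2b*, and up to 3 genes without overlap per list. Other genes were named after their values were seen. The alternatives were normexp correction (offset 50), quantile and median scaling, the authors' table, other filters on dim probes, the 8 arrays alone, trend and robust eBayes, blocks for slide, replicate number, and the leading number of each animal's label, Y-linked signal as a covariate, the median probe, the Mann-Whitney test, and each array left out. That leading number, whose meaning the labels do not give, is shared by wild-type replicates 3 and 4 and by 2 pairs of an Fcgr2b-deficient and a double-deficient mouse, and its block correlation was 0.827. With this block, 98 probes had a limma p below 0.05 before adjustment, against 151 without it, and the smallest adjusted p was 0.273 against 0.106. The standard errors and p-values given elsewhere leave this block out. List counts without wild-type replicate 1 were added after seeing the data.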

Additional observations from a re-analysis of the deposited data

Results flagged for a closer look

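Of 156 groups of 4 values examined, the named genes and list scores in the 2 genotypes, 7 held a mouse far from the other 3 by Dixon's test, which chance gives in about 1 of 20 groups. Wild-type replicate 1 was that mouse in 5 of them. It was at 3.17 for *Lyn*, where the other wild-type mice were between 2.05 and 2.19, at −0.062 for *Il1b* (others −2.91 to −2.51), and at 0.055 for *Dusp23* (others 1.86 to 2.17). Its score was 1.55 for the NK and cytotoxic list (others −0.72 to −0.37) and 2.39 for the adipocyte list (others −1.01 to −0.47). In the double-deficient mice, replicate 3 was at −1.07 for *Tnf* (others −0.72 to −0.67), and replicate 4 at −2.53 for *Ear10* (others −1.85 to −1.78).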

How the results depend on the processing

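No gene was called under quantile or median scaling, no filter on dim probes, the authors' table, trend and robust eBayes, the slide or replicate block, a block on the leading number of each animal's label, the Y-linked covariate, or no fold threshold. The adjusted Mann-Whitney test also gave 0 calls, but with 4 against 4 its smallest p is 0.0286 before adjustment, so that it was too coarse to call single genes. The number called was 1 with normexp correction, 1 over probes above background on all arrays, 3 in the fit of the 8 arrays alone, and 0 to 1 with each array left out, 1 being without wild-type replicate 1. The unadjusted Mann-Whitney test gave 63 probes. The count of probes apart by 2-fold without overlap, 63, was 24 with normexp, 118 with no filter, 15 over probes above background on all arrays, 195 with no fold threshold, and 67 to 448 with each array left out. The median of the cGAS-STING list was −0.15 with median scaling, 0.018 in the authors' table, and −0.037 to 0.022 with each array left out. That of the patrolling monocyte and eosinophil list was 0.85 with normexp and 0.89 over probes above background on all arrays. That of the mesangial list was 0.031 to 0.25 with each array left out. Signs turned for *Isg15* (0.019 with the label-number block), *Ifng* (−0.12 with normexp), *Tnf* (−0.099 with median scaling, −0.0014 in the authors' table, −0.0013 with the slide block, and −0.022 with the label-number block), and *Cd3e* (0.0087 with normexp, 0.0031 with quantile scaling, and 0.14 with the label-number block). With each array left out, the log2 change was −0.049 to 0.75 for *Sting1*, −0.043 to 0.40 for *Lyn*, −0.36 to 0.047 for *Isg15*, −0.11 to 0.47 for *Cxcl10*, −0.26 to 1.07 for *Ifng*, −0.11 to 0.15 for *Tnf*, and −0.23 to 0.13 for *Cd3e*. The cause was not tested in any of these cases. Replicate numbers do not pair the mice, since the deviations of same-numbered mice correlated at −0.60, −0.31, 0.40, and −0.19, and with the replicate block limma called 0 probes, with 204 at p below 0.05 before adjustment. Probes near background limit the bounds given.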

Other observations

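Of the 63 probes apart by 2-fold without overlap, 20 had no gene name here. Genes of 4 lists outside the immune and kidney lists also showed small differences. The median log2 change was 0.092 over 18 clock genes, −0.14 over 28 cell cycle genes, −0.31 over 11 red cell genes, and −0.11 over 29 genes of xenobiotic metabolism. In this order 11, 6, 2, and 7 genes were higher, where 44.8% of all tested genes were. The red cell median was −0.46 to −0.085 over all alternatives. Without wild-type replicate 1 the 4 medians were 0.035, −0.12, −0.14, and −0.057. In the last list the vitamin D hydroxylase gene *Cyp24a1* was at 1.5, with an unadjusted p below 0.05 and overlapping groups.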
